A study of Mus musculus with 24 samples.

Results

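Nefh, Tnni3, Tnnt2, Apobec2, Tcfl5, Catsperz, Trap1a, Snhg11, Lhfpl4 and Susd3 are 10 genes of 25361 in the deposited expression table. They were listed as neural, muscle, germ-cell or tumour-antigen genes and were picked because their expression in TPM (transcripts normalised for length and library total) was higher in Chd4-ECko or double-knockout libraries than in control libraries. The values of those comparisons therefore chose the genes, and they are given as a description with no test. The choice did not use the Brg1-ECko libraries, the other genes of the same lineages, the neighbouring genes or the promoter sequences. The comparison of Brg1-ECko with control and that of both cell fractions in control embryos were not used as such. They share the control libraries with the choice, however, so their values for these genes are not independent of it.

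Livers were taken from mouse embryos at embryonic day 12.5 (E12.5) on a mixed genetic background, with male and female embryos pooled, and cells that bound CD146 beads (the liver sinusoidal endothelial cells, LSECs) were sequenced beside the unbound cells (non-EC). Each fraction held 4 genotypes with 3 replicates each, 24 libraries in all and all labelled as batch 1. Control embryos (Ctrl) were Cre-negative littermates from the cross of floxed parents. All mutants carried VE-cadherin-Cre+. The floxed alleles were Chd4 fl/fl with Brg1 fl/+ in Chd4-ECko embryos, Brg1 fl/fl with Chd4 fl/+ in Brg1-ECko embryos and fl/fl at both genes in Brg1/Chd4-ECdko embryos, so each single mutant also carried 1 floxed allele of the other gene. VE-cadherin-Cre recombines in endothelial cells, and the study notes activity of this Cre in some liver blood cells as well.

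CHD4 is the ATPase of the NuRD complex, which slides nucleosomes and removes histone acetylation, and it is known for keeping genes of other lineages silent in differentiated cells. BRG1 (gene Smarca4) is an ATPase of the SWI/SNF complexes, which open chromatin. The genes described here have known roles elsewhere. Nefh encodes the heavy neurofilament subunit of large axons, Lhfpl4 a partner of GABA-A receptors at inhibitory synapses, and Snhg11 a noncoding RNA that hosts small nucleolar RNAs and is known from neurons. Tnni3 and Tnnt2 encode the cardiac forms of troponin I and troponin T, the calcium switch of the thin filament, and Apobec2 a deaminase-family protein of striated muscle. Tcfl5 encodes a helix-loop-helix factor of male germ cells, Catsperz a subunit of the sperm calcium channel CatSper, and Trap1a an antigen of mouse tumours that T cells recognise. Susd3 encodes a membrane protein with a sushi domain, and no lineage is assigned to it here.

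TPM keep no record of the read number, so the depth of each library is unknown beyond the nominal read number that the study gives. A level of 1 TPM was reached by 12746 to 13219 genes per LSEC library and by 11450 to 11973 genes per non-EC library. LSEC libraries carried their endothelial markers in every genotype. The summed TPM of 9 such markers was 1432 to 1876 in control, 1583 to 1784 in Chd4-ECko, 900 to 1451 in Brg1-ECko and 1300 to 1579 in Brg1/Chd4-ECdko LSECs, against 29.9 to 72.9 over all 12 non-EC libraries. Chd4 itself was at 284.5, 255 and 246 TPM in control LSECs and at 223, 168 and 252 TPM in Chd4-ECko LSECs, and at 242, 249.8 and 256 TPM in those of the double knockout. Smarca4 averaged 146 ± 13.4 TPM in control, 132 ± 23.5 TPM in Brg1-ECko and 133 ± 16.7 TPM in double-knockout LSECs (SD, n = 3), so neither target showed a clear fall. Gene-level TPM include transcripts without the floxed exons, and so these values do not check the deletion. By qRT-PCR on E12.5 LSECs isolated with a LYVE1 antibody, the study did find less Chd4 and Brg1 transcript in the matching mutants. The Y-linked gene Ddx3y was at 35.2, 53.9 and 27.3 TPM in the 3 control LSEC libraries, whereas each mutant genotype included 1 or 2 libraries at 1.49 TPM or less. Sex was therefore not balanced between control and mutant embryos.

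The genes lie on 9 chromosomes, so they do not form a cluster. By the GENCODE annotation of GRCm39, the build of the deposited values, Tnnt2 is on the forward strand at chr1:135763738-135780315, Snhg11 on the forward strand at chr2:158217558-158228071, and Tcfl5 on the reverse strand at chr2:180263529-180284556. Lhfpl4 is on the reverse strand at chr6:113145047-113172348, Tnni3 on the reverse strand at chr7:4521300-4527228, and Nefh on the reverse strand at chr11:4888740-4898130. Susd3 is on the reverse strand at chr13:49378985-49402182, Apobec2 on the reverse strand at chr17:48726257-48739958, Catsperz on the reverse strand at chr19:6899739-6902748, and Trap1a on the forward strand at chrX:138234367-138238920. Of the 10, 9 are annotated as protein-coding and Snhg11 as a long noncoding RNA.

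Promoters were looked up because most of the genes were high in the same libraries. The RefSeq promoter table (build GRCm38.p6) matched 9 of the 10 genes with 10 promoters, 2 of them for Tnnt2, and Nefh had no entry. The 250 bases before the annotated start are printed 5′ to 3′ on the gene's strand for a pair of CpG-rich and a pair of CpG-poorer promoters, with CpG dinucleotides in capitals. They cover chr2:180642692-180642941 (Tcfl5, reverse), chr2:158375463-158375712 (Snhg11, forward), chr7:4522529-4522778 (Tnni3, reverse) and chrX:139333433-139333682 (Trap1a, forward) of GRCm38.p6.
Tcfl5: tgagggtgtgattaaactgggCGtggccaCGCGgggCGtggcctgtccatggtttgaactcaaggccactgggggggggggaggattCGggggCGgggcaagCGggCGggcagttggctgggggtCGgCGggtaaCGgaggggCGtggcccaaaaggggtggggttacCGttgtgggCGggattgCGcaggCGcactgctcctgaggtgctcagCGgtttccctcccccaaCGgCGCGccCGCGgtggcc
Snhg11: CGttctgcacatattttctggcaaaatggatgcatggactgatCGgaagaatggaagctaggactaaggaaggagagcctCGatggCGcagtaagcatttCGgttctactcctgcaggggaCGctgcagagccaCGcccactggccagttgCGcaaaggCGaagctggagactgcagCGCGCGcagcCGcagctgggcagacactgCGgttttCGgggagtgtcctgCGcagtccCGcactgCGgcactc
Tnni3: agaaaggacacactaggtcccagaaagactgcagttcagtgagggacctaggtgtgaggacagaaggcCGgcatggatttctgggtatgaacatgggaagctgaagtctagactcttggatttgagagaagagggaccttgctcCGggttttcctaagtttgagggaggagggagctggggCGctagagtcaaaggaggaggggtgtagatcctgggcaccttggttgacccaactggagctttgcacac
Trap1a: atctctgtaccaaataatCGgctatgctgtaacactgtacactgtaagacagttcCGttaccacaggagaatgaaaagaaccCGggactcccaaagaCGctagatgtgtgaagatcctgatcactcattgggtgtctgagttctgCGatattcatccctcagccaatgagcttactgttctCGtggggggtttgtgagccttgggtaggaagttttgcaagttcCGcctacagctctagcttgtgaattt
The Tcfl5 stretch held 22 CpG and the Snhg11 stretch 18, whereas the Trap1a stretch held 7 and the Tnni3 stretch 3. Over all 32851 promoters of the table the median was 6 CpG, with quartiles of 2 and 16. Of the promoters not printed, Lhfpl4 held 17 CpG, Susd3 and Catsperz 7 each, Apobec2 4 and the 2 Tnnt2 promoters 5 and 0. The genes thus spanned CpG-free to CpG-rich promoters. The GC box (GGGCGG, either strand) was present in the promoters of 3 genes, Tcfl5, Lhfpl4 and Apobec2, against 32.7% of all promoters. CCAAT on either strand was present for 5 genes against 33.8%, and the GATA-factor motif AGATAA was found for Tnnt2 alone against 9.99%. TATAAA was present for Apobec2 alone against 12.4%, while the E-box CACGTG was present in none of them against 6.02%, and the ETS-factor motif CCGGAAG likewise in none against 6.91%. No searched motif was shared by all 9 genes.

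The first question was how each gene behaved over the genotypes in LSECs. Differences are given on the log2(TPM + 1) scale with a standard error (SE) from a limma model of the 12 LSEC libraries, and this scale understates changes of genes near 1 TPM. Because the material is bulk RNA, more cells that carry a transcript and more transcript per cell cannot be told apart.

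Among the neural genes, Nefh showed 1.15, 1.41 and 1.13 TPM in control LSECs, 13.8, 20.2 and 14.03 TPM in Chd4-ECko, 1.45, 2.16 and 1.95 TPM in Brg1-ECko LSECs, and 7.75, 9.95 and 6.66 TPM in Brg1/Chd4-ECdko. The 4 groups did not overlap for Nefh, and the double knockout lay between Chd4-ECko and Brg1-ECko. The difference from control was 2.91 (SE 0.20) in Chd4-ECko and 2.02 (SE 0.20) in the double knockout, and the double knockout was lower than Chd4-ECko by a difference of -0.90 (SE 0.20). Snhg11 was at 0.642, 0.156 and 0.434 TPM in control, 4.68, 2.31 and 1.72 TPM in Chd4-ECko, 1.78, 1.40 and 1.36 TPM in Brg1-ECko LSECs, and 4.69, 6.17 and 9.58 TPM in Brg1/Chd4-ECdko LSECs. In contrast to Nefh, Snhg11 was highest in the double knockout, by 1.03 (SE 0.28) over Chd4-ECko and by 2.44 (SE 0.28) over control, and all mutant libraries were above all controls. Lhfpl4 followed the same order, with 0.479, 0.472 and 0.511 TPM in control, 1.72, 1.06 and 1.08 TPM in Chd4-ECko, 0.436, 0.729 and 0.874 TPM in Brg1-ECko LSECs, and 2.39, 3.83 and 3.93 TPM in Brg1/Chd4-ECdko. Its difference from control was 0.61 (SE 0.21) in Chd4-ECko and 1.54 (SE 0.21) in the double knockout, and only the Brg1-ECko values overlapped with control.

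The muscle genes did not share a pattern. Tnni3 was at 1.72, 1.76 and 1.70 TPM in control LSECs, 7.98, 30.3 and 10.7 TPM in Chd4-ECko, 1.69, 3.37 and 1.396 TPM in Brg1-ECko LSECs, and 11.04, 12.8 and 15.8 TPM in Brg1/Chd4-ECdko. The cardiac troponin I gene overlapped between the double knockout and Chd4-ECko, with differences from control of 2.37 and 2.45 (SE 0.36 each), and Chd4-ECko replicate 2 was far above its group. Tnnt2, the cardiac troponin T gene, was already at 21.7, 14.2 and 21.8 TPM in control LSECs, and 14.9, 24.6 and 20.7 TPM in Chd4-ECko overlapped with them. The Tnnt2 values were 7.41, 18.7 and 19.98 TPM in Brg1-ECko LSECs, and 21.8, 53.0 and 41.3 TPM in Brg1/Chd4-ECdko LSECs. The Chd4-ECko difference was 0.05 (SE 0.36). In Brg1/Chd4-ECdko the difference was 0.91 (SE 0.36), and the lowest double-knockout library overlapped with control at 21.8 TPM. Apobec2 was at 0.807, 0.553 and 0.797 TPM in control, 2.96, 4.13 and 2.69 TPM in Chd4-ECko, 0.397, 0.0933 and 0.119 TPM in Brg1-ECko LSECs, and 0.807, 1.00 and 2.12 TPM in Brg1/Chd4-ECdko LSECs. It was the gene for which the double knockout came closest to control, with differences of 1.30 (SE 0.23) in Chd4-ECko and 0.39 (SE 0.23) in the double knockout.

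The germ-cell genes Tcfl5 and Catsperz and the tumour antigen Trap1a had no overlap with control in Chd4-ECko or Brg1/Chd4-ECdko LSECs. Tcfl5 was at 1.69, 1.70 and 1.02 TPM in control LSECs, 13.5, 17.8 and 10.96 TPM in Chd4-ECko, 1.08, 1.31 and 1.45 TPM in Brg1-ECko LSECs, and 11.5, 14.98 and 15.4 TPM in Brg1/Chd4-ECdko. The difference of Tcfl5 from control was 2.60 (SE 0.20) in either genotype, and the Chd4-ECko and Brg1/Chd4-ECdko values overlapped. Catsperz, at 4.65, 2.38 and 2.09 TPM in control, reached 7.35, 12.1 and 7.60 TPM in Chd4-ECko and 5.96, 8.92 and 5.14 TPM in the double knockout, and was at 1.44, 1.96 and 1.35 TPM in Brg1-ECko LSECs. Its difference from control was 1.33 (SE 0.26) in Chd4-ECko and 0.95 (SE 0.26) in the double knockout, so the sperm-channel gene stood above control in both and lowest in Brg1-ECko. Trap1a was at 0.139 and 0.111 TPM in 2 control LSEC libraries and was listed at 0 in the third, against 8.36, 19.5 and 9.02 TPM in Chd4-ECko, 0.478, 0.337 and 0.575 TPM in Brg1-ECko LSECs, and 5.56, 3.93 and 8.30 TPM in Brg1/Chd4-ECdko. This X-linked gene had the largest differences of the 10, 3.52 (SE 0.29) in Chd4-ECko and 2.63 (SE 0.29) in the double knockout, and its highest double-knockout value, 8.30 TPM, lay just under its lowest Chd4-ECko value, 8.36 TPM. Susd3 was at 0.326, 0.313 and 0.395 TPM in control, 0.966, 2.34 and 1.85 TPM in Chd4-ECko, 1.52, 1.64 and 1.69 TPM in Brg1-ECko LSECs, and 3.40, 6.68 and 7.40 TPM in Brg1/Chd4-ECdko LSECs. Its differences from control were 0.98 (SE 0.25), 0.96 (SE 0.25) and 2.29 (SE 0.25) in that order of mutants, the largest in the double knockout.

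**Figure D1:**
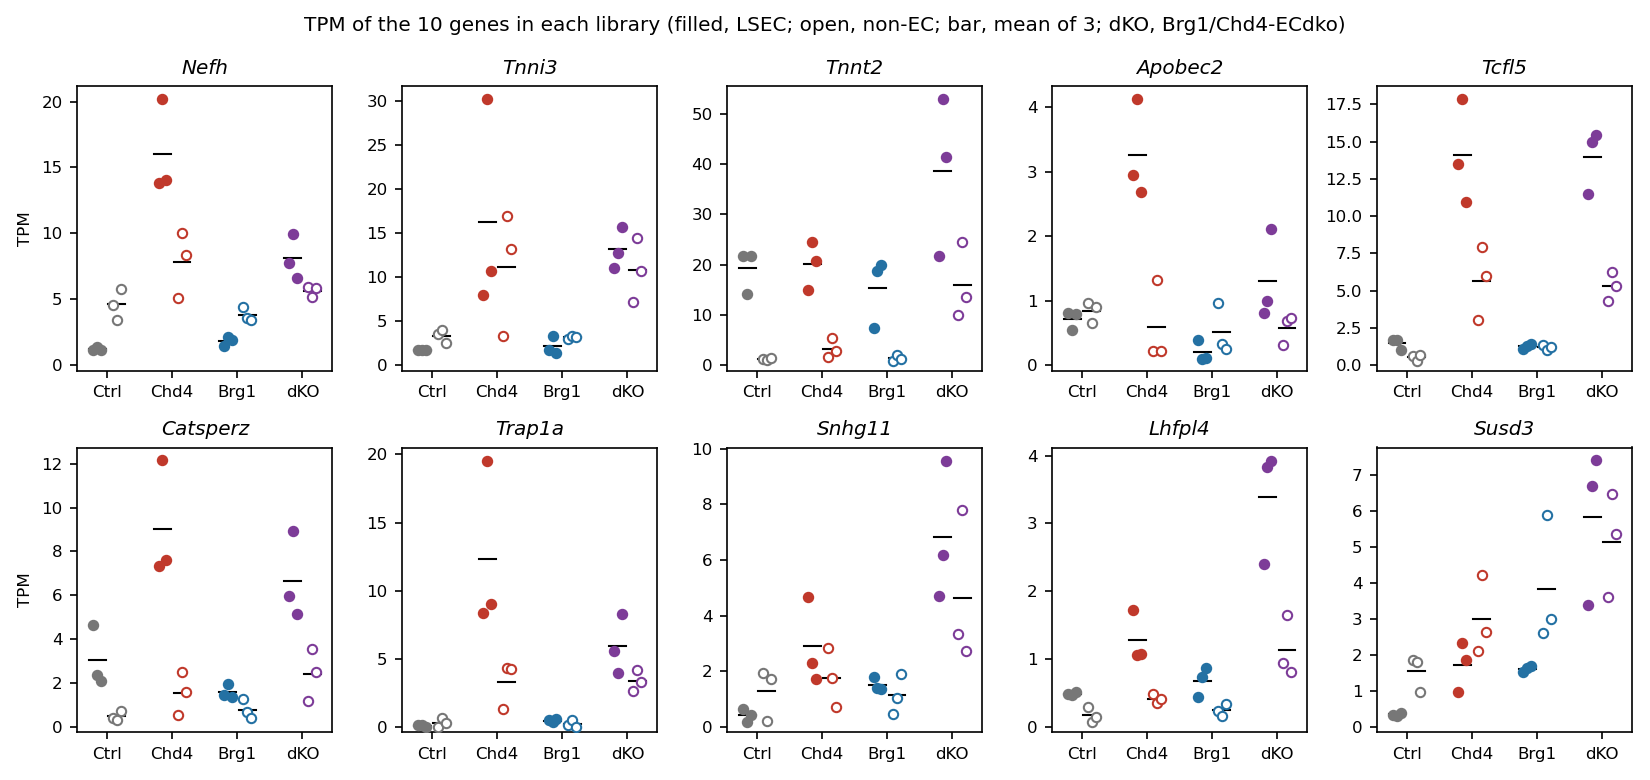
TPM of each of the 10 genes in every library by genotype, with filled points for LSECs, open points for non-EC cells and bars for the mean of 3 replicates. Nefh and Trap1a are highest in Chd4-ECko LSECs, Susd3, Lhfpl4 and Snhg11 in double-knockout LSECs, and Tnnt2 is already at 14.2 to 21.8 TPM in control LSECs.

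With the cutoffs (log2 fold change above 1 and adjusted p under 0.05, limma with Benjamini-Hochberg adjustment over 13444 genes), 7 of the 10 genes passed as higher in Chd4-ECko LSECs, where 0.491% of all tested genes did. The same number passed in Brg1/Chd4-ECdko LSECs, where the share of all tested genes was also 0.491%. Since the genes were picked on these comparisons, nothing is read from either count. With Ddx3y as a covariate, an alternative added after the data were seen, the counts were 3 and 4. Leaving out 1 library at a time gave 4 to 7 and 6 to 7. Tnnt2, Lhfpl4 and Susd3 did not pass in Chd4-ECko, and Tnnt2, Apobec2 and Catsperz did not pass in Brg1/Chd4-ECdko. In each comparison 9 genes had no overlap with control and lay higher, where 8.7% of all tested genes did so in Chd4-ECko and 20.8% in the double knockout; for Apobec2 in the double knockout the ranges met at 0.807 TPM. Apobec2, Lhfpl4 and Trap1a entered the LSEC model only through libraries of the genotypes in which they were picked, since none of their control or Brg1-ECko libraries reached 1 TPM.

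Between Brg1/Chd4-ECdko and Chd4-ECko LSECs, 5 genes had a positive and 5 a negative difference, and none passed the cutoffs, where 0.0372% of all tested genes did. Snhg11, Lhfpl4 and Susd3 were higher in the double knockout with no overlap (13.6% of all genes), with differences of 1.03, 0.93 and 1.31. Nefh, Apobec2 and Trap1a were lower with no overlap (2.25% of all genes), with differences of -0.90, -0.91 and -0.89. Tnni3, Tcfl5, Catsperz and Tnnt2 overlapped, with differences of -0.08, 0.00, -0.38 and 0.85.

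**Figure D2:**
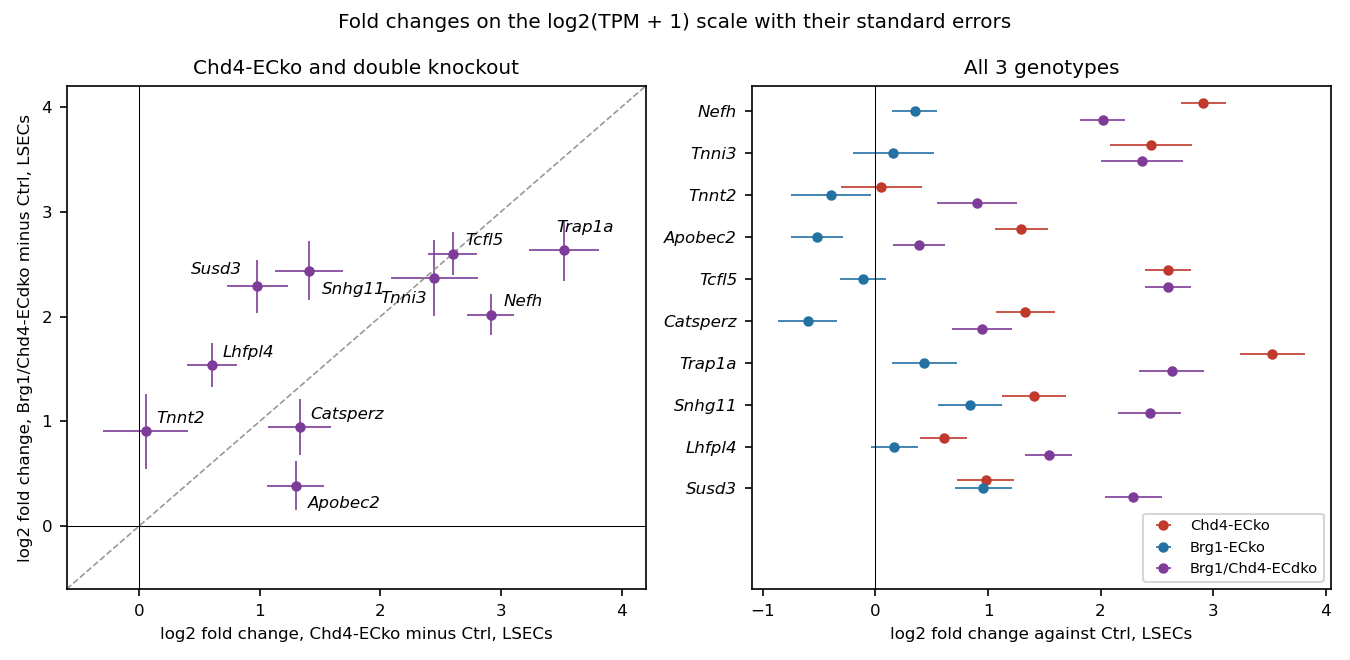
Differences from control in LSECs on the log2(TPM + 1) scale with SE bars. On the left, Chd4-ECko (x axis) is set against Brg1/Chd4-ECdko (y axis) with a dashed line of equal change, and Susd3, Snhg11, Lhfpl4 and Tnnt2 lie above the line, while Nefh, Trap1a, Apobec2 and Catsperz lie below it; on the right, all 3 mutants are shown for each gene, and the Brg1-ECko points lie between -0.60 and 0.96.

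The genes were also compared by their likeness over the 12 LSEC libraries. Pearson's r of log2(TPM + 1) was 0.787 to 0.970 over the 15 pairs of Nefh, Tnni3, Apobec2, Tcfl5, Catsperz and Trap1a, and 0.877 to 0.929 over the 3 pairs of Snhg11, Lhfpl4 and Susd3. Between both sets r was 0.238 to 0.799, which overlapped with the range of the first set, and Tnnt2 was in neither set. These values describe libraries that share genotype groups, among them those on which the genes were picked. The sets were formed after the values were seen. Among all other tested genes, the gene most like Nefh, Tnni3 and Tcfl5 was the embryonic beta-like globin Hbb-bh1 (r = 0.972, 0.976 and 0.969), and the gene most like Trap1a was the embryonic alpha-like globin Hba-x (r = 0.976). Apobec2 was most like the cytochrome P450 gene Cyp4b1 (r = 0.969) and Catsperz most like Septin1 (r = 0.929). Lhfpl4 was most like Ric3 (r = 0.969), Snhg11 like Ikzf2 (r = 0.935), Susd3 like Fdx1 (r = 0.937) and Tnnt2 like Cdk5r1 (r = 0.940).

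**Figure D3:**
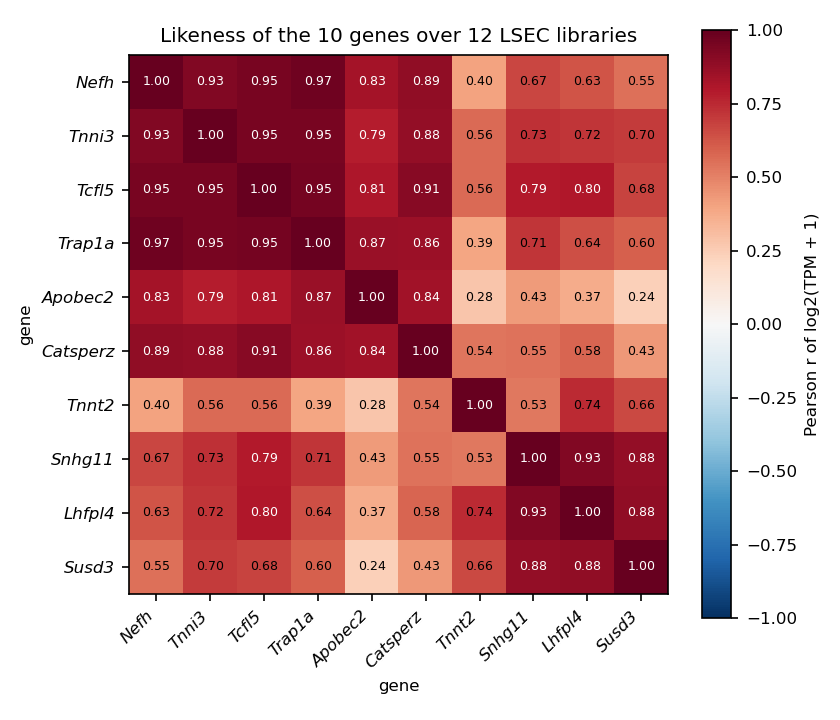
Pearson's r of log2(TPM + 1) between each pair of the 10 genes over 12 LSEC libraries, with genes on both axes and r as colour and number. The 6 genes at the upper left have r of at least 0.787 with each other, the 3 at the lower right at least 0.877, and Tnnt2 is less like most of the others.

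The replicates within a genotype did not vary gene by gene alone. Chd4-ECko replicate 2 held the highest value of its group for 8 of the 10 genes in LSECs and for 8 of the 10 genes in the non-EC fraction. Brg1/Chd4-ECdko replicate 1 held the lowest value of its group for 7 genes in each fraction. Embryonic globins were also highest in Chd4-ECko replicate 2, and all 3 of them passed as higher in both genotypes. Their summed TPM was 266, 1606 and 719 in Chd4-ECko LSECs and 297, 261 and 325 in those of the double knockout, against 29.5, 17.6 and 29.5 in control and 47.6, 50.5 and 49.3 in Brg1-ECko. Markers of blood cells moved as well. Of 10 pan-blood markers, 5 passed the cutoffs as higher in Chd4-ECko and 4 in the double knockout, and their summed TPM was 216 to 285 in control, 338 to 541 in Chd4-ECko, 277 to 314 in Brg1-ECko and 394 to 416 in Brg1/Chd4-ECdko, with none of the 10 at 0 in any group. Of 10 myeloid markers, 4 passed as higher in Chd4-ECko and 0 in the double knockout. In Chd4-ECko an unadjusted limma p under 0.05 was found for 8 pan-blood and 9 myeloid markers, against 6.49% of all tested genes. In the double knockout it was found for 9 and 6, against 12.1%. Of 9 erythroid markers, 0 passed and 0 had an unadjusted limma p under 0.05 in either genotype. Their differences were positive for 9 in Chd4-ECko (median 0.69) and for 4 in the double knockout (median -0.02). Their summed TPM was 175 to 330 in Chd4-ECko and 97.0 to 184 in double-knockout LSECs, against 82.4 to 250 in control. The part of blood cells in the values of the 10 genes was not tested.

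The comparison of Brg1-ECko, which also carries 1 floxed Chd4 allele, with control was not used to choose the genes, although it shares its control libraries with those that were used. In Brg1-ECko LSECs, 0 of the 10 genes passed the limma cutoffs, where 0.0149% of all tested genes did. Of the 5 genes that reached 1 TPM in all 3 control LSEC libraries, 1 (Catsperz) had an unadjusted limma p under 0.05, against 9.68% of all tested genes. The other genes needed mutant libraries to pass the filter, so their p-values are not counted. Susd3 and Snhg11 reached 1 TPM in no control library and passed the filter only through mutant libraries, Brg1-ECko among them. Their differences of 0.96 (SE 0.25) and 0.84 (SE 0.28), with 3 of 3 Brg1-ECko libraries above control for each, are therefore given with no test. Catsperz was lower in 3 of 3 libraries, with a difference of -0.60 (SE 0.26) that did not pass (adjusted p = 0.488 by limma). Apobec2, which entered the model only through the other genotypes and was under 1 TPM in all 6 of these libraries, had a difference of -0.52 (SE 0.23), and no test is drawn on it. In all, 4 genes lay higher with no overlap (Nefh, Trap1a, Snhg11 and Susd3), where 10.9% of all genes did, and 2 lower (3.71% of all genes). The genes were picked against these same control libraries, and Trap1a, Snhg11 and Susd3 reached 1 TPM in none of them. Nothing is therefore read from either count. For Nefh, Tnni3, Tnnt2 and Tcfl5 the difference was 0.35, 0.16, -0.39 and -0.11, with adjusted p of 0.599 or more by limma, and for Trap1a and Lhfpl4, which like Apobec2 were under 1 TPM in these libraries, it was 0.43 and 0.17. Markers of other cells are given beside these values. The 7 hepatoblast markers had a median difference of 1.205 from control and the 9 endothelial markers one of -0.45, with 0 past the limma cutoffs in either list and 7 and 5 at an unadjusted p under 0.05. The 10 pan-blood and 10 myeloid markers had medians of 0.55 and 0.62, with 9 positive in each list, 0 past the limma cutoffs and 5 and 6 at an unadjusted p under 0.05. Brg1-ECko replicate 1 stood apart, with a summed hepatoblast level of 25933 TPM against 5615 and 6040 TPM in replicates 2 and 3, which lay within the control range of 2862 to 6156 TPM. The part of these cells in the values was not tested.

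In non-EC cells 8 of the 10 genes reached the level needed to be tested, and Apobec2 and Lhfpl4 did not. Trap1a reached 1 TPM in none and Catsperz in 1 of the 6 control and Brg1-ECko non-EC libraries, and Tcfl5 in no control library, so these 3 passed the filter through mutant libraries and no test is drawn on them. Susd3 and Snhg11 each had a control library under 1 TPM, at 0.959 and 0.228 TPM. They too needed mutant libraries to pass the filter, and no test is drawn on them. Nefh, Tnni3 and Tnnt2 did not pass the limma cutoffs in Brg1-ECko, where 1.37% of all tested genes did. Their unadjusted limma p was 0.353 or more, whereas 28% of all tested genes were under 0.05. Susd3 was at 1.85, 1.81 and 0.959 TPM in control and 2.59, 5.87 and 2.99 TPM in Brg1-ECko non-EC cells, a difference of 0.88 (SE 0.29) given with no test. In the same cells the summed hepatoblast markers were at 23014 to 34246 TPM against 15887 to 17759 TPM in control, and the erythroid markers at 643 to 1054 TPM against 1069 to 2114 TPM, and their part in the values was not tested. Susd3 and Tcfl5 lay higher than control in Brg1-ECko non-EC cells with no overlap, where 21.9% of all genes did, and nothing is read from this. Trap1a, Apobec2 and Lhfpl4 were under 1 TPM in every control and Brg1-ECko library of both fractions, and no test of a difference between fractions is drawn on them. No such test is drawn on Susd3 and Snhg11 either, which reached 1 TPM in no control LSEC library and not in every control non-EC library. For Nefh, Tnni3, Tnnt2, Tcfl5 and Catsperz the Brg1-ECko difference did not pass as different between LSECs and non-EC cells (limma interaction), where 0.639% of all genes passed. Their unadjusted p in that interaction was 0.0644 or more by limma, whereas 17.9% of all genes were under 0.05. For Susd3 that interaction was 0.07 (SE 0.39), given with no test.

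Non-EC cells of Chd4-ECko and Brg1/Chd4-ECdko embryos also carried several of the transcripts. Tcfl5 was at 0.617, 0.300 and 0.720 TPM in control non-EC cells, 3.01, 7.96 and 6.01 TPM in Chd4-ECko and 4.31, 6.24 and 5.30 TPM in the double knockout, with no overlap and differences of 2.04 (SE 0.26) and 2.02 (SE 0.26). Trap1a was listed at 0 in control non-EC replicate 1 and at 0.680 and 0.272 TPM in the other two, against 1.32, 4.34 and 4.27 TPM in Chd4-ECko and 2.63, 4.15 and 3.26 TPM in the double knockout. Tnnt2, from 1.22, 1.04 and 1.48 TPM in control non-EC cells, reached 1.66, 5.45 and 2.90 TPM in Chd4-ECko and 10.1, 24.5 and 13.6 TPM in the double knockout, a difference of 2.84 (SE 0.35) in the latter. The cardiac troponin T gene thus had its highest mean in the double knockout in both fractions, and only in non-EC cells did all 3 double-knockout libraries lie above control. Tnni3 was at 3.60, 3.998 and 2.52 TPM in control non-EC cells, 3.39, 16.97 and 13.2 TPM in Chd4-ECko and 7.19, 14.5 and 10.7 TPM in the double knockout, and the Chd4-ECko values overlapped with control through replicate 1 alone. Nefh, at 4.55, 3.47 and 5.82 TPM in control non-EC cells, overlapped with control in Chd4-ECko (5.11, 10.03 and 8.38 TPM) and in Brg1/Chd4-ECdko (5.95, 5.19 and 5.84 TPM). Of the 8 tested genes, 2 (Tcfl5 and Trap1a) passed as higher in Chd4-ECko non-EC cells, where 0.434% of all genes did, and 3 (Tnnt2, Tcfl5 and Trap1a) in Brg1/Chd4-ECdko, where 0.115% did. Leaving out 1 library at a time gave 1 to 5 and 0 to 4, and fewer passed in both with Ddx3y as a covariate. Without overlap, 5 of the 10 genes lay higher than control in Chd4-ECko non-EC cells, where 15.8% of all genes did, and 8 in the double knockout, where 16% did. Markers of other cells differed in these non-EC libraries as well. The summed hepatoblast markers were at 23684 to 32804 TPM in Chd4-ECko and 20161 to 27077 TPM in the double knockout, against 15887 to 17759 TPM in control. Embryonic globins summed to 75.7 to 492 TPM and 54.1 to 100.2 TPM, against 9.70 to 29.96 TPM in control, with no overlap in either list, and the part of such cells in the values of the 10 genes was not tested. These comparisons also belong to those on which the genes were picked, and nothing is read from the counts.

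The non-EC level was also set against the LSEC level of the same gene, for the 10 genes and for endothelial transcripts. The 9 endothelial markers had a non-EC mean TPM that was 2.50% of their LSEC mean at the median in Chd4-ECko and 2.56% in the double knockout, with highest values of 13.1% and 28.3% (Erg). The corresponding shares of the 10 genes were 16.6% to 174% in Chd4-ECko and 33.5% to 88.2% in Brg1/Chd4-ECdko, all above the highest endothelial marker. The median share was higher in the other genotypes, at 156% (6.48% to 446%) and 8 of the 10 genes above the highest endothelial marker in control, and at 85.2% with 9 of 10 above it in Brg1-ECko. In Chd4-ECko the share was 26.9% for Trap1a, 40.1% for Tcfl5, 48.9% for Nefh and 68.5% for Tnni3. TPM are relative to each library's own total, and the cells that hold these transcripts in the non-EC fraction were not identified here.

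**Figure D4:**
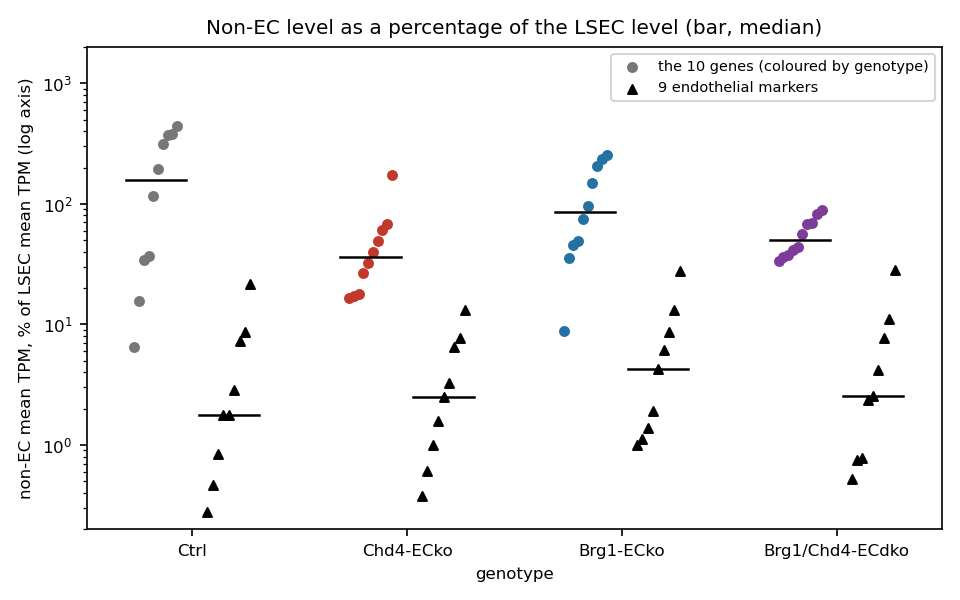
Mean TPM in non-EC cells as a percentage of the mean TPM in LSECs (log axis) by genotype, with coloured circles for the 10 genes, black triangles for 9 endothelial markers and bars for medians. In Chd4-ECko and Brg1/Chd4-ECdko every circle is above the highest triangle, with medians of 36.1% and 50.2% against 2.50% and 2.56%.

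In control embryos the genes had no common fraction. Trap1a, Apobec2 and Lhfpl4 were under 1 TPM in every control library of both fractions, so no test is drawn on them. Susd3 and Snhg11 reached 1 TPM in no control LSEC library and not in every control non-EC library, so none is drawn on them either. Nefh, Tnnt2 and Catsperz passed the limma cutoffs between control LSECs and control non-EC cells, where 32.7% of all tested genes did, and Tnni3 and Tcfl5 did not. More of the 10 passed with a pseudocount of 0.1, after quantile normalization or without a fold cutoff. These control values were also among those used to pick the genes, so the p-values given here are not independent of that choice. Tnnt2 was higher in LSECs by 3.15 (SE 0.38, adjusted p = 3.15e-07 by limma, 19.3 ± 4.37 against 1.25 ± 0.220 TPM, SD, n = 3). Catsperz was higher in LSECs by 1.41 (SE 0.31, adjusted p = 0.000446 by limma, 3.04 ± 1.40 against 0.474 ± 0.225 TPM). Nefh was lower in LSECs, by a difference of -1.31 (SE 0.21, adjusted p = 1.10e-05 by limma, 1.23 ± 0.155 against 4.61 ± 1.17 TPM). Tnni3, Snhg11, Susd3 and Tcfl5 differed by between -0.90 (Susd3) and 0.67 (Tcfl5). For Tcfl5 the adjusted p was under the cutoff by limma (0.0147), but the fold change was below its own. The differences of Trap1a, Apobec2 and Lhfpl4 were -0.25, -0.10 and 0.35.

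Whether whole lineage programmes moved was examined with 9 lists that hold 362 other genes of muscle, neurons, synapses, germ cells, CatSper subunits, X-linked tumour-antigen families, paralogues of the 10 genes and silencing factors, of which 167 were tested in LSECs. None passed the limma cutoffs in Chd4-ECko, where 19 of the 167 had an unadjusted p under 0.05 against 6.49% of all tested genes, and the median difference was 0.00 beside 0.01 over all tested genes. That count was 2 with the replicate block, 4 without Brg1-ECko replicate 1, 2 without Chd4-ECko replicate 1 and 1 without Brg1-ECko replicate 3. In Brg1/Chd4-ECdko 3 passed, all higher, where 0.491% of all tested genes did, with a median of 0.21 beside 0.16 over all genes. An unadjusted p under 0.05 was found for 25 of the 167, against 12.1% of all genes. The count of calls was 0 without control replicate 2 or without double-knockout replicate 2 or 3. It was 1 without control replicate 3, and 5 without Brg1-ECko replicate 1 or double-knockout replicate 1. In Brg1-ECko none passed (1 without its replicate 1), 15 had an unadjusted p under 0.05 against 9.68% of all genes, and the median was -0.07 beside 0.08. The lists were drawn up with earlier results of these data known.

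The 3 genes that passed are germ-line or X-linked genes, and none of them passed with Ddx3y as a covariate. None reached 1 TPM in a control LSEC library, so all 3 entered the LSEC model only through mutant libraries in which they are high, and their values are a description. Tex19.1, which is known for restraining retrotransposons in germ cells, was at 0.262 TPM in 1 control library and listed at 0 in the others, and at 0.862, 1.69 and 1.02 TPM in Chd4-ECko and 1.22, 1.33 and 2.01 TPM in the double knockout. Its difference from control was 1.21 in the double knockout and 1.00 in Chd4-ECko (SE 0.22 each). Tex19.1 thus lay higher in 3 of 3 libraries of both genotypes, at low TPM. Xlr4a, of an X-linked lymphocyte-regulated family, was at 0.672 ± 0.151 TPM in control and 4.76 ± 1.25 TPM in double-knockout LSECs (SD, n = 3), a difference of 1.76 (SE 0.30). Zbtb16, a zinc-finger factor of spermatogonial stem cells that blood cells also use, was at 0.542 ± 0.0950 and 2.45 ± 0.960 TPM in the same groups, a difference of 1.13 (SE 0.23). In control non-EC cells Xlr4a was at 1.85 ± 0.935 TPM and Zbtb16 at 4.90 ± 1.31 TPM, the latter above its mean in double-knockout LSECs.

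The lists were also counted one by one in LSECs. Over all tested genes, 0.491% passed as higher in each of Chd4-ECko and Brg1/Chd4-ECdko, so that a list of this size can hold 0 calls at the background share and nothing is read from such a count. An unadjusted p under 0.05 was found for 6.49% and 12.1% of all tested genes in the same comparisons. Of 33 tested genes of the sarcomere and of muscle calcium handling, 0 passed in Chd4-ECko (6 with an unadjusted p under 0.05 by limma) and 0 in Brg1/Chd4-ECdko (3 with an unadjusted p under 0.05). Tnni1, the slow skeletal troponin I gene, was at 31.7 ± 5.55 TPM in control LSECs and at 41.0 ± 12.1 TPM in Chd4-ECko LSECs. In non-EC cells, however, Tnni1 was at 3.01, 2.50 and 3.38 TPM in control, against 4.56, 16.96 and 10.6 TPM in Chd4-ECko and 7.87, 12.5 and 12.7 TPM in the double knockout, with no overlap. In LSECs Tnnt1, the neighbour and slow-muscle relative of the troponins, was at 40.4 ± 31.7 and 30.3 ± 16.3 TPM. Both were thus at a higher TPM than Tnni3 in control LSECs, and Tnnt1 varied widely between replicates. The other neurofilament genes Nefl and Nefm were at 5.002 ± 2.41 and 5.97 ± 3.28 TPM in control and at 2.13 ± 0.340 and 1.90 ± 0.405 TPM in Chd4-ECko LSECs, with differences of -0.86 and -1.13 and adjusted p of 0.500 and 0.556 by limma. In double-knockout LSECs Nefl was at 4.41 ± 0.320 TPM and Nefm at 8.14 ± 3.81 TPM, with differences from control of -0.07 and 0.45 and adjusted p of 0.941 and 0.652 by limma, and Nefm was higher than in Chd4-ECko by 1.59 (SE 0.45, adjusted p = 0.401 by limma). Of 18 tested paralogues of the 10 genes, 0 passed in Chd4-ECko or in the double knockout (4 and 3 with an unadjusted p under 0.05 by limma). Of 35 tested genes of the neuronal cytoskeleton and synapse, 0 passed in both (5 and 5 with an unadjusted p under 0.05 by limma), and of 13 tested genes of GABA-A receptors and inhibitory synapses 0 passed (1 and 1 with an unadjusted p under 0.05 by limma). Of 16 tested muscle transcription factors 0 and 2 had an unadjusted limma p under 0.05 in Chd4-ECko and the double knockout. For 19 germ-cell genes this was 2 and 5, and for 14 genes of X-linked families 3 and 3. In Chd4-ECko this share was thus above that of all tested genes for the sarcomere genes, the paralogues and the neuronal genes. The same held for the germ-cell and X-linked genes and, by little, for those of inhibitory synapses. Direction was mixed, with 16 of 33 sarcomere, 15 of 35 neuronal, 13 of 18 paralogue and 13 of 19 germ-cell differences positive. In the double knockout the sarcomere and inhibitory-synapse shares were below that of all tested genes. Of the 15 genes of the CatSper list only 2 could be tested, neither passed, and 13 were under 1 TPM in all control LSEC libraries. Of 25 silencing factors, among them DNA methyltransferases and corepressors, 0 passed in Chd4-ECko (1 with an unadjusted p under 0.05 by limma) and 0 in Brg1/Chd4-ECdko (3 with an unadjusted p under 0.05).

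**Figure D5:**
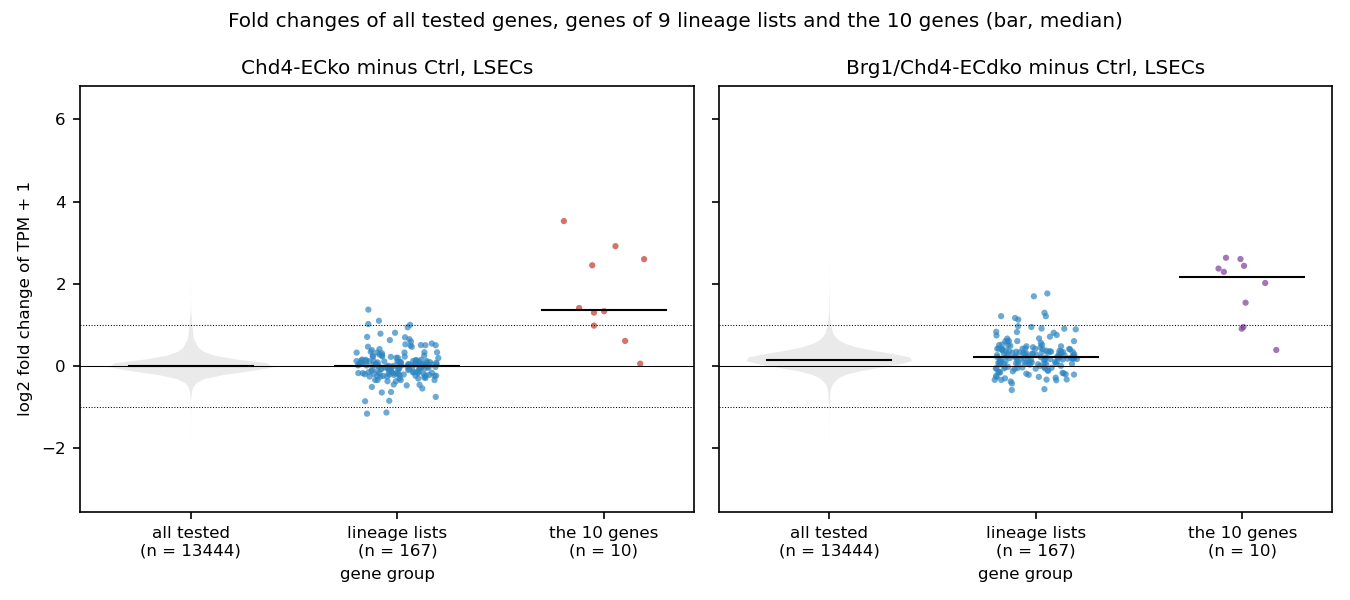
Differences from control in LSECs on the log2(TPM + 1) scale for all 13444 tested genes (violin), 167 genes of 9 lineage lists and the 10 described genes (points), with bars for medians and dotted lines at a difference of 1 in either direction. The medians of the lists are 0.00 in Chd4-ECko and 0.21 in the double knockout, and those of the 10 genes, which were picked on these comparisons, are 1.37 and 2.15.

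Markers of the cells these genes are known from were given beside them. The summed TPM of 15 heart muscle markers in LSECs was 57.3 to 79.3 in control, 55.7 to 67.6 in Chd4-ECko, 36.2 to 64.8 in Brg1-ECko and 53.6 to 113 in Brg1/Chd4-ECdko. Of these markers 8 were under 1 TPM in all control and 7 in all Chd4-ECko LSEC libraries, and the atrial myosin light chain gene Myl7 (41.7 TPM on average in control), the cardiac actin gene Actc1 (12.8 TPM) and the cardiac factor Tbx5 (6.86 TPM) were expressed in control LSECs, while the cardiac factor Nkx2-5 averaged 0.0528 TPM in control and 0.114 TPM in Chd4-ECko. Actc1 was at 13.2, 2.26 and 22.8 TPM in control and 7.29, 34.7 and 54.2 TPM in double-knockout LSECs, a difference of 1.29 (SE 0.86, adjusted p = 0.520 by limma), the highest of the 7 tested heart markers. Tnnt2 and Actc1 thus both had their highest LSEC mean in the double knockout. The heart list did not share this pattern. Of its 7 tested markers 4 had a positive difference from control in double-knockout LSECs, with a median of 0.04 and a lowest value of -0.34. Myl7 averaged 35.1 TPM in double-knockout LSECs, a difference of -0.24 from control. In non-EC cells Actc1 was at 3.497, 0.990 and 3.27 TPM in control and 2.74, 12.1 and 7.57 TPM in the double knockout, and the 15 heart markers summed to 2.95 to 6.71 TPM in control, 5.47 to 9.12 TPM in Chd4-ECko, 2.69 to 7.44 TPM in Brg1-ECko and 5.74 to 12.8 TPM in the double knockout, which overlapped with control. The summed TPM of 11 neuron and glia markers was 32.6 to 39.6 in control and 30.2 to 33.1 in Chd4-ECko, and that of 7 germ cell markers was 2.39 to 3.73 and 1.83 to 6.27. In double-knockout LSECs the neuron and glia markers summed to 23.8 to 38.8 TPM and the germ cell markers to 3.85 to 5.41 TPM. In Chd4-ECko LSECs the sums of all 3 lists overlapped with control, and in the double knockout that of the germ cell markers lay wholly above the control range. The part of such cells in the values of the 10 genes was not tested.

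Neighbouring genes were compared with the same model. The nearest tested gene on either side of each gene gave 20 neighbours. None passed the limma cutoffs in Chd4-ECko, Brg1/Chd4-ECdko or Brg1-ECko LSECs, with 2, 2 and 1 at an unadjusted p under 0.05, against 6.49%, 12.1% and 9.68% of all tested genes. Their median differences were -0.03, 0.17 and 0.07, beside 0.01, 0.16 and 0.08 over all genes. Some annotated genes overlap. Nefh shares 1996 bases with Ap1b1 on the opposite strand (difference in Chd4-ECko 0.13), Tnni3 shares 1297 bases with Dnaaf3 on the same strand (-0.09) and Tcfl5 shares 535 bases with Col9a3 on the opposite strand (0.64, adjusted p = 0.585 by limma). Catsperz shares 1415 bases with Kcnk4 on the same strand, which was too low to be tested. Over their whole lengths of 4554 and 3010 bases, Trap1a and Catsperz overlap the opposite-strand long noncoding RNAs Platr21 and Gm59185, which have no values here. Apobec2, Tcfl5, Lhfpl4 and Susd3 overlap such RNAs in part. Whether the counting used strand is not given in the sources used here. The troponin genes Tnni3 and Tnnt1 lie 1919 bases apart, and the Tnnt1 difference was -0.19 in Chd4-ECko and 0.60 in the double knockout, with adjusted p of 1.0 and 0.717 by limma.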

How the data were processed

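RNA from 24 libraries was deposited by the authors as TPM (transcripts normalised for length and library total) per gene, made from paired reads with CLC Genomics Workbench on GRCm39. Its version and the use of strand are not given in the sources used here. TPM keep no depth, so no counting interval is given. The 8 group-mean columns deposited with them were not used. Values were analysed as log2(TPM + 1) with limma 3.58.1 (trend, R 4.3.3), with 1 model of 12 libraries per fraction and 1 of 24 libraries for comparisons between fractions. Genes had to reach 1 TPM in at least 3 libraries, p-values were Benjamini-Hochberg adjusted, and the cutoffs were an absolute log2 fold change above 1 and adjusted p under 0.05. The procedure was tested on simulated data. The 10 genes and all lists were chosen with earlier results of these data known. Named beside the 10 genes were list members past the cutoffs (up to 5 a list), nearest tested neighbours and the genes most alike, while heart markers, troponin and neurofilament relatives were named after their values were seen. Same-numbered LSEC and non-EC libraries deviated together in 12 of 12 pairs (r 0.124 to 0.411), so they were treated as paired in an alternative for the comparison of fractions. Nothing says that replicates of a group were separate litters, so p-values measure the spread between these samples. Positions came from GENCODE M39.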

Additional observations from a re-analysis of the deposited data

How the results depend on the processing

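The depth of each library is unknown, 3 libraries a group limit precision, and sex differed between libraries. Of the counts under alternatives, 196 of 242 stayed within 1.5 times the original, and of the single differences 1501 of 1610 kept direction and side of the cutoffs, 61 lost and 20 gained the call and 28 turned; causes were not tested. Among the 10 genes, a mean of at least 5 TPM left 4 of 5 tested calls in Chd4-ECko LSECs, 3 of 5 in double-knockout LSECs, 0 of 3 in Chd4-ECko non-EC and 1 of 3 in double-knockout non-EC cells, and the Ddx3y covariate (added after seeing the data) left 3, 4, 1 and 0. Groups fitted alone gave 1 for the double knockout against Chd4-ECko and 1 in Chd4-ECko non-EC cells. Between control fractions, 6 passed with a pseudocount of 0.1, 5 after quantile normalization and 5 without a fold cutoff. For the lineage lists in Chd4-ECko, 1 gene passed with no filter, 2 without the trend, 2 with the replicate block and 2 with the groups alone. In the double knockout, 0 passed with the mean filter, 1 after quantile normalization, 0 with Ddx3y and 5 with the groups alone.

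Turned differences were Tcfl5 in the double knockout against Chd4-ECko (-0.14, quantile), Tnnt2 in Chd4-ECko LSECs (-0.035, Ddx3y), Lhfpl4 between control fractions (-0.14, quantile) and, in Brg1-ECko non-EC cells, Snhg11 (0.019 with the other pseudocount, 0.39 with Ddx3y), Tnnt2 (-0.022 quantile, -0.37 Ddx3y) and Catsperz (-0.38, Ddx3y).

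Leaving out each library in turn gave 4 to 7 of the 10 genes in Chd4-ECko LSECs (4 without control replicate 2 or 3 or Chd4-ECko replicate 2 or 3), 6 to 7 in double-knockout LSECs and 0 to 1 between both (1 without double-knockout replicate 1). In non-EC cells it gave 1 to 5 in Chd4-ECko (1 without control replicate 1 or Chd4-ECko replicate 2 or 3, 5 without Chd4-ECko replicate 1) and 0 to 4 in the double knockout (0 without control replicate 1 or 2, Brg1-ECko replicate 3 or double-knockout replicate 1 or 2, and 1 without double-knockout replicate 3). Brg1-ECko stayed at 0 in each fraction, and control fractions gave 3 to 4. The lists gave 0 to 4 in Chd4-ECko (2 without Chd4-ECko replicate 1, 4 and 1 without Brg1-ECko replicate 1 and 3), 0 to 5 in the double knockout (0 without control replicate 2 or double-knockout replicate 2 or 3, 1 without control replicate 3, 5 without Brg1-ECko replicate 1 or double-knockout replicate 1) and 0 to 1 in Brg1-ECko (1 without its replicate 1). Ranges across 0 were -0.14 to 0.24 (Tnnt2, Chd4-ECko LSECs), -0.10 to 0.33 and -0.63 to 0.031 (Tnni3 and Tnnt2, Brg1-ECko LSECs), -0.44 to 0.46 and -0.15 to 0.17 (Tnni3 and Tcfl5, double knockout against Chd4-ECko), -0.11 to 0.60 (Snhg11, Chd4-ECko non-EC) and, in Brg1-ECko non-EC cells, -0.19 to 0.062 (Tnni3), -0.12 to 0.20 (Tnnt2), -0.29 to 0.081 (Trap1a) and -0.46 to 0.19 (Snhg11).

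Within a fraction same-numbered libraries share only a number: 13 of 18 LSEC pairs and 10 of 18 non-EC pairs correlated above 0.1, and 10 of 12 LSEC and 6 of 12 non-EC libraries did so best with their own number. The replicate block gave 4 genes against 3 in double-knockout non-EC cells and 4 against 3 for the lists in the double knockout.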
